A study of Mus musculus with 6 samples.

Results

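Freshly sorted splenic T cells of WT mice, neither cultured nor stimulated, were profiled on 3 arrays, and the level of each transcript in these 3 samples is described here, gene by gene and group by group. The 3 samples are those whose genotype label is WT, out of 6 samples in all, and no comparison with the other genotype was made. The study asked how DUSP4, a phosphatase of the MAP kinase pathway, acts on STAT5 and helper T cell differentiation, and the other 3 samples are T cells from DUSP4-/- mice. The labels name no engineered allele for the WT mice, which were C57Bl/6 mice of 6 to 8 weeks of age. Their splenic T cells were sorted with magnetic beads to a purity of 90 to 95% according to the design text. RNA was taken straight after the sort. Whether the cells were resting by their transcripts is described below, since several genes of early activation were bright. Total RNA was labeled and hybridized to the Affymetrix Mouse Gene 2.0 ST array, 1 array per sample. The labels do not say whether the 3 samples came from separate mice. A legend of the study calls the WT and DUSP4-/- sample pairs independent without naming what sets them apart, so the spread given below may be partly technical.

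A resting T cell circulates between blood and lymphoid organs and waits for its T cell receptor (TCR) to meet a peptide held by an MHC molecule. The receptor signals through the CD3 and zeta chains, the coreceptors CD4 and CD8, the SRC and SYK family kinases and the adaptors LAT and SLP-76. Such cells are kept alive by interleukin-7 and by weak receptor contact, stay out of the cell cycle, draw most of their energy from mitochondria, and turn to glycolysis, cytokine secretion and division after activation. The spleen also holds B cells, macrophages, neutrophils, NK cells and red cell precursors, some of which can pass a bead sort.

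The deposited values are on a log2 scale, on which a difference of 1 is a 2-fold difference. Of 41345 probe sets, 23521 named exactly 1 gene, and they stood for 22180 genes. Where a gene had several of these, as 1082 genes did, the one brightest on average in the WT samples stood for it. Mean levels ran from 0.83 to 13.14, with a median of 5.08 and 25th and 75th percentiles of 4.01 and 6.99. To mark the level of genes that T cells are not known to use, the 1392 olfactory and vomeronasal receptor genes served as a yardstick. Their median was 2.72, and their 95th percentile, 4.86, was taken as the background boundary. By this boundary 10066 genes (45.4%) were near background. The brightest 10% of genes, 2218 genes at 8.40 or above, were called high, and the 9896 between the boundaries were called middling. A gene near background is not shown to be silent, and the brightness of a probe set depends on its probe sequences as well as on the transcript. The probe sets of 1 gene differed by a median of 1.53 between the brightest and the dimmest, and by more than 1 in 681 of the 1082 genes (62.9%). Ranks are therefore ranks of brightness, and no fold difference between genes is given.

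**Figure D1:**
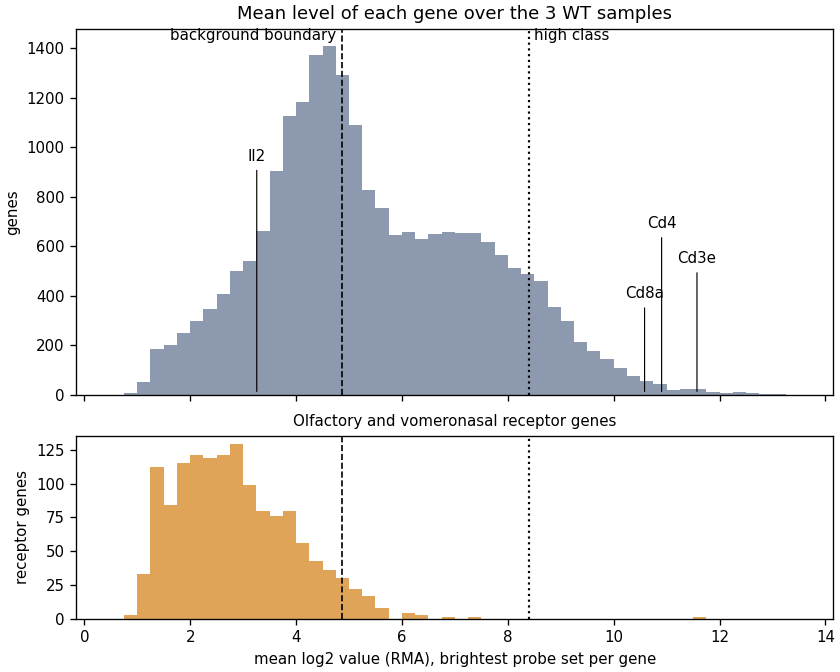
Number of genes (upper panel) and of olfactory and vomeronasal receptor genes (lower panel) by mean log2 value over the 3 WT samples, in bins of the log2 value, with the background boundary of 4.86 (dashed) and the boundary of the high class of 8.40 (dotted). Most receptor genes lie left of the dashed line, while Cd4 (10.90), Cd8a (10.58) and Cd3e (11.57) lie far to the right and Il2 (3.26) lies on the left.

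Among the receptor genes 70 were above the boundary and 1 was high. That gene, Vmn1r233, read 11.53, 11.69 and 11.69, and what its probes measure there was not tested. Each sample has its own boundary when the receptor genes are read in it alone, 4.80 in WT replicate 1, 4.89 in WT replicate 2 and 5.01 in WT replicate 3. Above these boundaries 11017 genes (49.7%) were found in all 3 samples, 9289 in none, and the rest in 1 or 2 samples. All 2218 genes of the high class were above the boundary in each of the 3 samples.

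WT replicate 1 stood apart from the other 2 samples, and some of the results that rest on it are given with and without it. Over the 12114 genes above the boundary, Spearman's rho was 0.981 between WT replicates 2 and 3, 0.965 between replicates 1 and 2 and 0.950 between replicates 1 and 3, across genes, which are not independent replicates. The genes of the sex chromosomes split the samples the same way. Xist, the RNA that silences one X chromosome in female cells, read 10.09 in WT replicate 1 and 3.58 and 3.87 in replicates 2 and 3. The Y-linked gene Eif2s3y read 3.14 in WT replicate 1 and 9.03 and 8.77 in the other 2. Uty (2.98, 8.01 and 7.98) and Kdm5d (2.80, 7.63 and 7.28), also on the Y chromosome, ran the same way. The labels give no sex, so a difference of sex and any other difference between WT replicate 1 and the others cannot be told apart.

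The T cell label was borne out by the markers. Cd3e, the epsilon chain of CD3, read 11.65, 11.49 and 11.57 in WT replicates 1, 2 and 3, and ranked 60 among the 22180 genes. The coreceptor gene Cd4 read 10.98, 10.82 and 10.91 and ranked 124. The CD8 chains were likewise high. Cd8b1 read 10.95, 10.84 and 10.62 and ranked 148, and Cd8a read 10.79, 10.56 and 10.40 and ranked 191. None of these 4 genes spread over more than 0.38 between samples. The sources differ on the sort. A legend of the study says that naive T cells were purified for these arrays by the sort of the methods, which is a negative selection of CD4 T cells with beads against B220, CD11b, CD49b, Ter119 and CD8, whereas the sample labels and the design text name T cells only. Both CD8 genes were above the boundary of the high class in every sample, and the levels of Itgam (CD11b, mean 5.05) and Itga2 (CD49b, mean 5.37) were just above the background boundary. In bulk RNA, fewer cells of a type and less RNA per cell cannot be told apart, so these levels give no shares of cells.

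**Figure D2:**
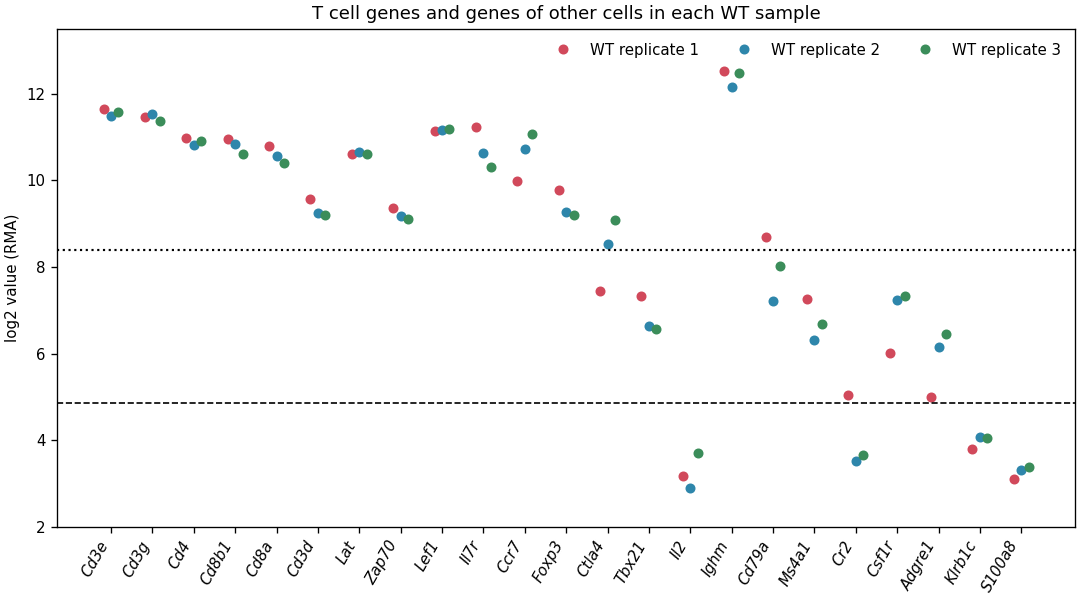
Log2 value of 23 genes in each of the 3 WT samples (1 point per sample), T cell genes on the left and genes of other cells on the right, with the background boundary (dashed) and the boundary of the high class (dotted). Lef1 (11.15, 11.18 and 11.19) and Lat lay close together in the 3 samples, whereas Ctla4 (7.44, 8.54 and 9.09) and Csf1r (6.02, 7.24 and 7.34) were lower in WT replicate 1 and Cd79a (8.68, 7.22 and 8.01) was lowest in WT replicate 2.

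The 30 brightest transcripts came mostly from the mitochondrial genome, from the translation machinery and from non-coding genes. Eif4a1, the helicase that opens messenger RNA for the ribosome, was the brightest gene of all, with 13.22, 13.06 and 13.13. B2m, the invariant chain of MHC class I, ranked 5 with 12.89, 12.84 and 12.87. Eef1a1, which brings aminoacyl-tRNA to the ribosome, read 12.41, 12.44 and 12.49. Of the 30 brightest genes, 9 lay on the mitochondrial genome, led by ND4 (12.93, 12.96 and 12.90), a subunit of complex I. All 10 mitochondrially encoded genes measured were high, at a median of 12.50 and, but for ND6 (9.22, 9.39 and 10.09), within 0.29 between samples. Other bright genes were non-coding: the transcription regulator RNA Rn7sk read 13.05, 13.09 and 13.01, and 52 of 80 small nucleolar RNAs were high.

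Other T cell and leukocyte genes also reached the top. Dgka, a diacylglycerol kinase that damps TCR signaling, ranked 27 with 12.22, 12.14 and 12.01. Ddx5, an RNA helicase, read 11.84, 12.06 and 12.15, and Cd53, a tetraspanin of leukocytes, had a mean of 11.94. Ly6e, a membrane protein of lymphocytes, read 12.03, 11.57 and 11.82. The variable segment Trav9d-3 of the TCR alpha chain ranked 11 with 12.54, 12.60 and 12.72, and Trbv13-2 of the beta chain read 10.07, 9.90 and 9.85. The gamma chain segments Trgv6 (mean 4.59) and Trgv5 (mean 3.82) were near background. Segments of 1 locus resemble each other, and 5 probe sets named Trav9d-3 alone, so its level is uncertain.

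Of 64 genes of cytosolic ribosomal proteins, 35 were high, 23 middling and 6 near background. Their median was 9.59 with the brightest probe set and 7.85 when all probe sets of a gene were averaged, so the choice of probe set moved this group from the high to the middling range. Rpl21 (mean 12.54), Rps6 (12.32), Rpl28 (12.30), Rplp1 (12.20) and Rpl4 (12.19) led. Rpl32l (mean 2.37), Rpl10l (3.64) and Rps16 (4.19) were the dimmest. Rps16 is a standard subunit, and its probe set read 4.48, 4.69 and 3.39, the widest range of the list. Of the 30 translation factors 26 were high, at a median of 9.74. These genes were steady, as the median SD over the 3 samples was 0.09 for ribosomal proteins and 0.09 for translation factors, against 0.18 for all genes above the boundary.

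Many transcripts of the translation machinery are known to begin with a run of pyrimidines, the mark of messages whose translation follows mTOR activity. The 30 bases around the annotated start, from 10 before it, are shown for 3 bright genes that hold such a run and for CD3 and CD8 chains, with the run in capitals where 6 or more C or T bases begin with C within 5 bases of the start. The sequences are those of RefSeq on GRCm38.p6, read on the strand of the gene. Eef1a1 is at chr9:78481705-78481734 (minus), Rps6 at chr4:86857348-86857377 (minus), Rpl28 at chr7:4792955-4792984 (plus), Cd3e at chr9:45009592-45009621 (minus), Cd3d at chr9:44981776-44981805 (plus) and Cd8a at chr6:71373417-71373446 (plus).
Eef1a1: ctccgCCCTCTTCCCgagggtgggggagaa
Rps6: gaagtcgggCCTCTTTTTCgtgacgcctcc
Rpl28: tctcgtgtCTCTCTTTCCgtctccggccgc
Cd3e: tgtggggttcagacacctgcctcccctgtc
Cd3d: ccactCTTCCTTTTTCTgaatacccatgag
Cd8a: tctgtctgcagctggctaaaggagcagttt
Of 49 ribosomal protein genes with a promoter sequence, 18 (36.7%) held a run at the start, compared with 1557 (10.1%) of all 15358 protein-coding genes with a sequence. Without the ribosomal protein genes, 10.6% of the high class held one, close to the share over all genes. Cd3d held one and Cd3e, Cd3g and Cd8a did not.

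TCR signaling genes sat high as a group. Of the 39 genes of proximal TCR signaling, 31 were in the high class, which held 10% of all genes, 8 were middling and none was near background. The median of the list was 9.37. Ptprc (CD45), the phosphatase that keeps the SRC kinases ready, led with 11.58, 11.69 and 11.72. Lcp2 (SLP-76), an adaptor, read 11.01, 10.72 and 10.80, and Prkcq, the protein kinase C theta of the synapse, read 10.92, 10.82 and 10.50. The membrane adaptor Lat was steady at 10.62, 10.67 and 10.61. Zap70, the kinase that docks on the phosphorylated receptor, read 9.36, 9.17 and 9.12, and the SRC kinase gene Fyn read 9.19, 9.21 and 9.12. The dimmest members were Ubash3b (mean 6.86), Nck1 (7.37) and Ptpn7 (7.52). Lck and the zeta chain gene Cd247 were not analysed here, since no probe set named them alone. Of the other CD3 chains, Cd3g read 11.46, 11.53 and 11.38 and ranked 68, and Cd3d read 9.58, 9.26 and 9.21 and ranked 832.

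Steadiness varied within this list, whose median SD was 0.14. Cd6, a coreceptor-like membrane protein, had one of the 10 smallest SDs of the high class, with 9.38, 9.36 and 9.37. Bcl10, which links the receptor to NF-kappaB, had the widest spread, with 7.50 in WT replicate 1 and 8.67 and 9.03 in replicates 2 and 3. Cd28 (9.11, 9.80 and 9.89) and Icos (8.19, 8.76 and 8.92), both costimulatory receptors, were lowest in the same sample. Csk, a kinase that restrains the SRC family, ran the other way with 9.69, 9.22 and 8.95. Of the 39 genes 26 were highest in WT replicate 1, as were 8258 of all 22180 genes.

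Transcription factors of the T cell lineage and of the naive state filled the high class. Of 25 T cell transcription factors 18 were high and 7 middling, at a median of 9.54. Lef1, which with its relative TCF1 directs T cell identity, was bright and steady at 11.15, 11.18 and 11.19. Satb1, a chromatin organizer of T cells, read 10.37, 10.45 and 10.42. Foxp1 (mean 10.72) and Foxo1 (10.18), which hold naive cells in quiescence, and Elf1 (10.66) were also high. The lineage factors that split the helper and cytotoxic fates were lower: Zbtb7b (ThPOK), the CD4 fate factor, read 6.63, 6.23 and 5.94, and Runx3, the CD8 fate factor, read 8.08, 7.56 and 7.79. Id3, an inhibitor of E proteins, read 6.80, 5.82 and 6.66. Tcf7, which encodes TCF1, was not analysed here.

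Of 27 genes of naive T cell homing and survival 26 were high and 1, Cd44, was middling. Cd44 is a marker that rises on antigen-experienced cells, and it read 7.37, 7.43 and 7.72. S1pr1, the receptor that lets T cells leave lymphoid organs, read 10.53, 11.01 and 11.16. Il7r, the alpha chain of the interleukin-7 receptor, read 11.22, 10.64 and 10.32. Ccr7, which guides naive cells to lymph nodes, read 9.99, 10.73 and 11.07. These 3 receptors were high in each sample, but Il7r was highest and S1pr1 and Ccr7 were lowest in WT replicate 1.

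The lists of helper subsets lay lower than that of naive homing and survival. Their medians, from 5.61 (Th17) to 7.79 (regulatory T cells), were still above the all-gene median of 5.08. Of all genes 10% were high and 45.4% near background. The high share was 9.09% in the follicular helper list and above 10% in the other helper lists. The share near background was at most 30%, in the Th2 list. Of 18 regulatory T cell genes 3 were high and 15 middling, with a median of 7.79. Foxp3, the defining factor of regulatory T cells, read 9.78, 9.26 and 9.21. Il2ra (CD25) read 8.90, 8.52 and 8.32, and Nt5e (CD73) had a mean of 8.49. Ctla4, an inhibitory receptor of regulatory and activated cells, was the widest of the list, with 7.44, 8.54 and 9.09. It was thus above 8.40 in WT replicates 2 and 3 alone. The cytokine gene Il10 (4.49, 4.97 and 5.77) straddled the background boundary.

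The STAT factors of the Th1, Th2 and Th17 programs were high, while several of their cytokine genes were near background. Among 14 Th1 genes 2 were high, the chemokine gene Ccl5 (11.24, 10.63 and 10.90) and Stat4 (10.72, 10.43 and 10.43). Tbx21 (T-bet), the Th1 factor, read 7.34, 6.63 and 6.58, and Ifng read 5.95, 6.53 and 6.02. Among 10 Th2 genes Il4ra (9.34, 9.97 and 10.08) and Stat6 (9.36, 9.02 and 8.96) were high. The 3 Th2 cytokine genes were near background: Il4 read 4.43, 4.29 and 4.37, Il5 had a mean of 4.48 and Il13 of 4.82. Gata3, the Th2 factor that all T cells need in development, was middling at 8.37, 8.28 and 7.91.

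Among 13 Th17 genes Stat3 (9.54, 9.63 and 9.85) and Il21r (mean 9.09) were high, 8 were middling and 3 were near background. The 3 near background were cytokine genes: Il17a read 4.03, 4.41 and 3.89, Il21 had a mean of 4.35 and Il22 of 1.15, one of the lowest values on the array. Of 11 follicular helper genes Icos alone was high. Bcl6, the follicular factor, read 7.12, 7.08 and 7.56. Cxcr5, the receptor that leads cells to B cell follicles, read 7.99, 6.53 and 7.42, with WT replicate 1 highest and replicate 2 lowest.

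The cytotoxic granule genes spread over the whole scale. Of 17 genes 5 were high, 7 middling and 5 near background. Srgn, the proteoglycan that packs granules, read 10.31, 10.49 and 10.65. Ctsw (mean 10.06) and Nkg7 (10.28, 9.74 and 9.84), both of cytotoxic lymphocytes, were also high. Prf1 (perforin) was middling at 8.24, 7.79 and 7.89. Gzmb, the granzyme of activated killer cells, read 5.74, 6.92 and 7.15, and Gzma read 4.29, 4.53 and 4.51. The granzyme genes Gzmd, Gzmg and Gzmf were the dimmest of the list, with means of 2.74, 2.20 and 2.08. Among 16 inhibitory receptors 3 were high, Cd5 (mean 10.31), Vsir (10.20) and Btla (9.27), whereas Pdcd1 (PD-1) read 6.49, 5.57 and 5.97 and Lag3 had a mean of 5.67.

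Genes that rise within hours of TCR contact were not uniformly low in these uncultured samples. Of 22 genes of recent activation 9 were high, 12 middling and 1, Il2, near background. Il2, the growth factor gene of activated T cells, read 3.17, 2.90 and 3.70. Cd69, an early activation antigen, read 9.93, 11.36 and 11.20. Nr4a1, an orphan receptor induced by TCR signals, read 9.08, 10.30 and 10.90, and its relative Nr4a3 read 7.79, 9.57 and 10.33. These 3 genes were each lowest in WT replicate 1, with a gap of over 1 to both other samples. Egr1 (7.60, 7.91 and 7.66) and Egr2 (7.27, 6.99 and 7.21), which share the early kinetics, did not show that gap. The time between the death of the animals and lysis is not given in the sources used here, and its part in these levels was not tested.

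Cytokine receptors of the common gamma chain family were bright for interleukin-7, interleukin-2 and interleukin-4. Of 7 measured chains 5 were high. Besides Il7r and Il4ra, Il2rb, the beta chain shared by interleukin-2 and interleukin-15, read 10.21, 9.76 and 10.18. Il15ra (mean 6.21) and Il9r (5.34) were the dimmest. Jak1, the kinase these receptors share, ranked 93 with 11.08, 11.18 and 11.27, Jak2 had a mean of 9.85 and Tyk2 of 7.96. Il2rg and Jak3 were not analysed here.

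The STAT genes, the factors that carry cytokine signals to the nucleus, were all above background. Stat4 was the brightest, followed by Stat3 and Stat6. Stat5b was steady at 8.89, 8.84 and 8.89, whereas Stat5a read 7.29, 7.66 and 8.29. Stat2 (7.70, 7.20 and 7.30) was the dimmest of the 6 measured. The SOCS genes, feedback inhibitors of these pathways, lay lower, with 8 of 8 middling and a median of 6.30. Socs3 read 7.68, 7.68 and 8.69, and Cish read 6.62, 6.73 and 7.88, so both were highest in WT replicate 3. Socs1 (6.54, 6.06 and 6.28) and Socs2 (5.15, 5.28 and 5.32) moved less.

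Among the 10 MAP kinase phosphatases 5 were high and 5 middling. Dusp4, the gene of the study, was middling at 6.33, 7.61 and 8.13. Dusp1 (9.84, 10.75 and 10.43), which acts in the nucleus, was the brightest, and Dusp9 (mean 4.89) lay at the boundary. This was one of the widest-spread lists: 7 of its 10 genes ranged over more than 1 log2 unit, against 4% of all genes above the boundary. In each of the 7 WT replicate 1 was lowest, compared with 234 of the 484 genes above the boundary with such a range. Examples were Dusp5 (8.07, 9.92 and 10.34), Dusp10 (8.57, 10.49 and 10.35) and Dusp16 (5.97, 7.48 and 8.20). Between WT replicates 2 and 3 none of the 10 differed by more than 1, and without WT replicate 1 the median of the list was 8.52 in place of 8.17. It was 7.39 when all probe sets of a gene were averaged.

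Genes of the MAP kinases, which these phosphatases act on, and of their upstream regulators were mostly middling and steady. Of 23 genes of the MAP kinases and their upstream regulators, 5 were high, 15 middling and 3 near background. Rasa1 (mean 9.08), an inhibitor of RAS, led. The MAP kinase genes Mapk8 (mean 8.09), Mapk14 (p38 alpha, 7.73), Mapk11 (7.41) and Mapk9 (7.15) were middling. The upstream kinase gene Map2k1 (MEK1) had a mean of 7.69. The 3 near background were Mapk10, Mapk12 and Mapk13, with means of 4.57, 4.70 and 4.62. No gene of this list ranged over more than 1. The same held for the 21 genes of PI3K, AKT and mTOR, of which 11 were high, led by Pik3cd (mean 9.89), the catalytic subunit of leukocytes, and Gsk3b (9.59). Of 18 calcium and NFAT genes 10 were high, led by Nfatc3 (mean 9.93). Among 16 NF-kappaB genes 9 were high. Tnfaip3 (A20), an inhibitor of NF-kappaB, read 9.35 in WT replicate 1 and 11.70 and 11.66 in the others, and Rela, a subunit, was steadier with a mean of 9.88 and an SD of 0.20.

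Metabolic genes were mostly middling. Of 24 genes of the tricarboxylic acid cycle 12 were high, 11 middling and 1 near background, at a median of 8.39. Idh3g (10.08, 10.11 and 10.09), a subunit of NAD-dependent isocitrate dehydrogenase, was the brightest and one of the steadiest genes. Ogdh (mean 9.93), Mdh2 (9.77), Idh3b (9.68) and Sdha (9.57) followed. Pcx, the anaplerotic pyruvate carboxylase, read 4.30, 4.25 and 4.04 and was near background, and the cytosolic Idh1 had a mean of 5.75. Of 65 nuclear genes of oxidative phosphorylation 16 were high, 48 middling and 1, Ndufs5 (mean 4.64), near background, and Cox6a1 (11.33, 11.12 and 11.30) led.

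Of 24 genes of glucose uptake and glycolysis 8 were high and 16 middling, at a median of 7.46. Gapdh (11.54, 11.31 and 11.45) and Pkm (mean 10.02) led. Slc2a1 (GLUT1), the transporter that activated T cells move to the surface, read 8.59, 9.16 and 9.49. The hexokinases split: Hk1 read 7.66, 7.38 and 7.14, whereas Hk2 read 5.72, 6.16 and 6.36 and Hk3 had a mean of 5.17. Ldha (7.74, 7.53 and 7.27), which makes lactate, was middling. With all probe sets of a gene averaged, the median of this list was 6.91.

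The lists of lipid oxidation and lipid synthesis had medians of 7.21 and 7.16. Of 22 genes of fatty acid oxidation and uptake 3 were high, Lipa (mean 9.59), Hadha (9.35) and Hadh (8.59), and 4 were near background. The 4 included Ppargc1a (mean 3.20), a coactivator of oxidative tissues, and Fabp4 (2.74), a lipid carrier of adipocytes. Cpt1a, the gate of fatty acids into mitochondria, read 8.20, 7.79 and 7.34. In fatty acid and cholesterol synthesis 6 of 22 were high, led by Elovl5 (mean 9.71) and Srebf2 (9.25), and Scd1 read 5.34, 4.44 and 5.02. Amino acid uptake held 9 high genes of 21. Slc38a2 (9.61, 10.59 and 10.79) and Slc3a2 (mean 9.93) led, and Slc7a11 (2.96), the cystine transporter, was near background. Txnip, an inhibitor of glucose uptake and of thioredoxin, ranked 88 with 11.02, 11.02 and 11.74.

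Genes of the cell cycle were mostly middling, and many genes that restrain it were high. Of 33 cell cycle genes 3 were high, 28 middling and 2 near background, at a median of 6.36. The 3 high ones act in DNA replication: Pcna read 9.91, 10.16 and 10.06, Mcm4 had a mean of 8.90 and Mcm6 of 8.49. The mitotic genes Birc5 (mean 4.04) and Cdc25c (4.35) were near background. Mki67, the proliferation marker, was middling at 8.45, 7.98 and 8.16. Of 22 cell cycle inhibitors and quiescence genes 12 were high, at a median of 8.79. Btg1, an antiproliferative factor of resting lymphocytes, read 10.45, 11.21 and 11.23, and Cdkn1b (p27) read 9.15, 9.34 and 9.77. Cdkn1a (p21) was among the 20 genes with the widest spread, with 5.67, 6.41 and 8.02.

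**Figure D3:**
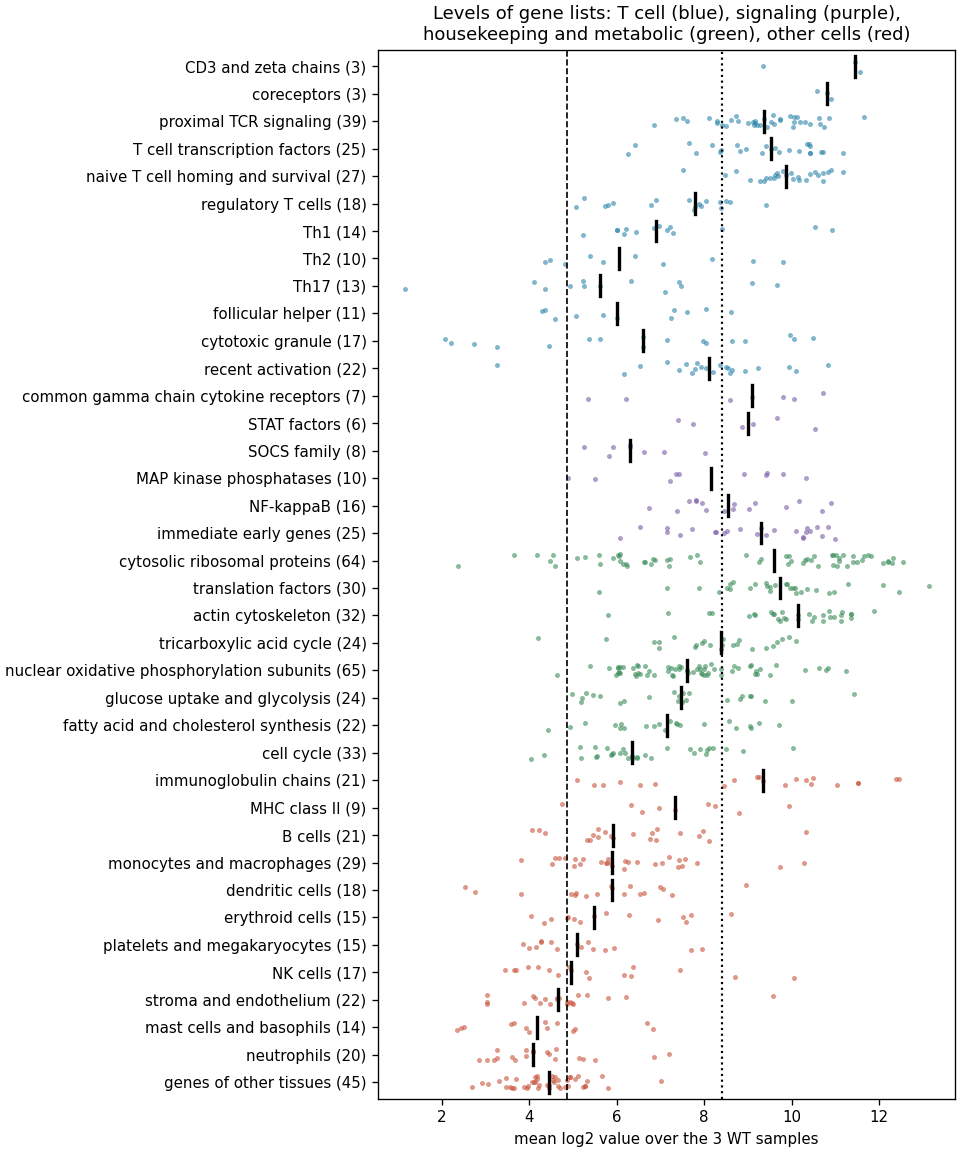
Mean log2 value over the 3 WT samples of each gene (points) in 38 gene lists, with the number of genes measured in brackets, the list median (black bar), the background boundary (dashed) and the boundary of the high class (dotted). The medians of the CD3 chains (11.46) and coreceptors (10.80) lie rightmost, and those of the genes of neutrophils (4.09), mast cells (4.18) and other tissues (4.45) lie left of the dashed line.

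Genes of other spleen cells were present at levels that differed by cell type. Immunoglobulin chains were the brightest of them: of 21 chain and segment genes 15 were high and 6 middling, at a median of 9.34, or 9.95 without WT replicate 2. Ighm, the mu heavy chain, ranked 16 with 12.54, 12.15 and 12.47, and Igkv5-43, a kappa variable segment, read 12.86, 11.91 and 12.57. Of 12 plasma cell genes 3 were high, 7 middling and 2 near background, at a median of 7.11. The brightest of the 12 was Jchain, which joins secreted IgM and IgA, with 10.63, 9.85 and 10.64. The dimmest was Tnfrsf17, with a mean of 4.52. Unlike the immunoglobulin chains, of 21 other B cell genes 1 was high, 17 were middling and 3 were near background, at a median of 5.90. The high one, Cd37 (10.69, 10.08 and 10.22), is a tetraspanin that T cells carry too. Cd79a, the signaling chain of the B cell receptor, read 8.68, 7.22 and 8.01, and Ms4a1 (CD20) read 7.26, 6.32 and 6.68. Cr2 (5.04, 3.52 and 3.66) and Fcer2a (5.07, 4.21 and 3.82), receptors of mature B cells, were near background by their means. The MHC class II gene H2-Ab1 read 10.23, 9.52 and 10.09, and 2 of 9 genes of that group were high.

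B cell genes moved together between the samples. Of the 21 B cell genes 20 were highest in WT replicate 1 and 17 lowest in WT replicate 2, compared with 8258 and 5786 of all 22180 genes. All 9 MHC class II genes were highest in WT replicate 1, and 8 were lowest in WT replicate 2. For immunoglobulin chains 17 of 21 were highest in WT replicate 1, 19 were lowest in WT replicate 2, and 16 ranged over more than 1. Ighg3, the gamma-3 heavy chain, differed in its order, with 9.40, 7.75 and 10.50. Leaving WT replicate 1 out, 10 of the 21 immunoglobulin genes still differed by more than 1 between replicates 2 and 3, but none of the 21 B cell genes did. Whether this reflects the number of B cells in each sort was not tested.

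Macrophage genes ran in another order. Of 29 genes of monocytes and macrophages 2 were high, 22 middling and 5 near background, at a median of 5.89. The high ones, Ly6c2 (mean 10.28) and Ctss (9.74), were steady, and Ly6c2 is known on memory CD8 T cells as well. The others included Csf1r, the receptor of macrophage growth factor, at 6.02, 7.24 and 7.34, Adgre1 (F4/80) at 5.0, 6.16 and 6.45, and C1qb, a complement chain of tissue macrophages, at 6.46, 7.33 and 7.81. Hmox1 and Spic, genes of the iron-recycling macrophages of the spleen, read 6.48, 7.42 and 8.57 and 5.49, 5.99 and 7.08. Of the 29 genes 21 were lowest in WT replicate 1 and 21 highest in WT replicate 3, compared with 8490 and 7482 of all 22180 genes. Lyz2 (5.73, 5.67 and 5.86) did not follow this order. Without WT replicate 1 the list median was 6.30, and 3 genes differed by more than 1 between the other 2 samples.

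Markers of the remaining cell types ranged from near background to middling, with few exceptions. Of all genes 10% were high and 45.4% near background, at a median of 5.08. Of 20 neutrophil genes 15 were near background and none was high, and S100a8 (3.10, 3.32 and 3.37), S100a9 (mean 4.09) and Ly6g (3.26) were among the 15. Mpo (7.05, 7.83 and 6.73) and Elane (mean 6.86), which mark granulocyte precursors, were the brightest of that list. Of 17 NK cell genes 2 were high, 8 middling and 7 (41.2%) near background, at a median of 4.96, close to the values over all genes. Il2rb and Klrd1 (8.98, 8.68 and 8.45), which T cells also express, were high. Of the NK receptor genes, Ncr1 (mean 4.96) lay just above the boundary and Klrb1c (3.97) was near background. Of 18 dendritic cell genes 14 were middling, 3 near background and 1 high, at a median of 5.88. The high one was Cd209a (9.05, 8.97 and 8.88), Itgax (CD11c) had a mean of 5.87 and Siglech of 5.05. Of 15 erythroid genes 1 was high and 10 were middling, at a median of 5.48. The high one, Car1, read 9.71, 7.74 and 8.37 and Klf1, the red cell factor, read 5.39, 4.73 and 4.45, and the globin genes were not analysed here. Of 15 platelet and megakaryocyte genes 8 were middling, led by Itgb3 (mean 7.94). The other 7 (46.7%) were near background and the list median was 5.10, both close to the values over all genes. The 7 included Pf4 (mean 3.99) and Ppbp (4.15). Of 14 mast cell and basophil genes 4 were middling, led by Kit (mean 6.84), and 10 near background. The 10 included Fcer1a (mean 2.43) and Mcpt4 (2.36). Of 22 stromal and endothelial genes 13 were near background, and Pecam1, which leukocytes carry too, was high with a mean of 9.59. Of 45 genes of other tissues, such as Ins2 (mean 3.60) of the pancreas and Fgb (2.69) of the liver, 33 were near background and none was high.

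Most genes were steady between the samples. The median SD of the 12114 genes above the boundary was 0.178, and 484 of them (4%) ranged over more than 1. In 358 of the 484 (74.0%) WT replicate 1 was the sample set apart, low in 198 and high in 160, compared with 41 for WT replicate 2 and 85 for WT replicate 3. Without WT replicate 1 the median SD was 0.104 and 46 genes differed by more than 1. The steadiest genes of the high class were Zfp148 (8.57, 8.58 and 8.58), a zinc finger factor, Rps6 (12.31, 12.32 and 12.31) of the small ribosomal subunit, Eif3c (9.86, 9.87 and 9.86), the small nucleolar RNA Snord70, Cd6, the lipid transfer protein gene Osbpl8, Ppp2r1a, the scaffold of phosphatase 2A, the mitochondrial protease gene Yme1l1, Rps3 and the pseudogene Rpl34-ps2.

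The widest spreads, after the sex-linked genes, were of a few kinds. Gdpd3 (5.02, 8.25 and 8.26), a phospholipase D type enzyme, and Zbtb10 (5.85, 8.69 and 8.97), a zinc finger factor, were each low in WT replicate 1. The same held for Vps37b (8.79 in WT replicate 1 and 11.19 in replicate 3), a subunit of the sorting complex ESCRT-I, and Gch1 (5.93, 8.03 and 8.31), which makes the cofactor tetrahydrobiopterin. Immunoglobulin segments formed the second kind, as for Ighv1-47 (7.28, 4.82 and 4.34). Mt2, a metallothionein, went its own way with 8.09, 5.78 and 7.03. Astx5 and Srsy, named by 5 and 7 probe sets on the X and Y chromosomes, ran in parallel, with 3.91, 5.62 and 6.68 and 3.86, 5.58 and 6.59, and related copies may share their signal.

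Immediate early genes, which respond to any stimulus within minutes and need no new protein, were also low in WT replicate 1. Of 25 genes 17 were high and 8 middling, at a median of 9.29. Of the 25, 19 were lowest and 3 highest in WT replicate 1, compared with 8490 and 8258 of all 22180 genes. A range over 1 was found in 10 of the 25, against 4% of all genes above the boundary. WT replicate 1 was lowest in each of the 10, compared with 234 of the 484 genes above the boundary with such a range. Among the 10, Fosl2 read 6.87, 8.75 and 9.23, Atf3 read 5.98, 8.10 and 8.28, and Fosb read 8.53, 10.16 and 10.12. Zfp36 (10.30, 10.36 and 10.58) and Jun (10.51, 10.82 and 10.42) were bright in each sample. Of 16 clock genes 12 were lowest in WT replicate 1 and 4 ranged over more than 1, with Per1 at 8.48, 10.18 and 10.78 and Nr1d2 at 7.13, 8.59 and 8.65, while Clock itself was steady at 8.77, 8.78 and 8.81. None of the 25 immediate early genes differed by more than 1 between WT replicates 2 and 3. WT replicate 1 was also the sample with high Xist, high B cell genes and low macrophage genes, and the part of these in the immediate early levels was not tested.

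**Figure D4:**
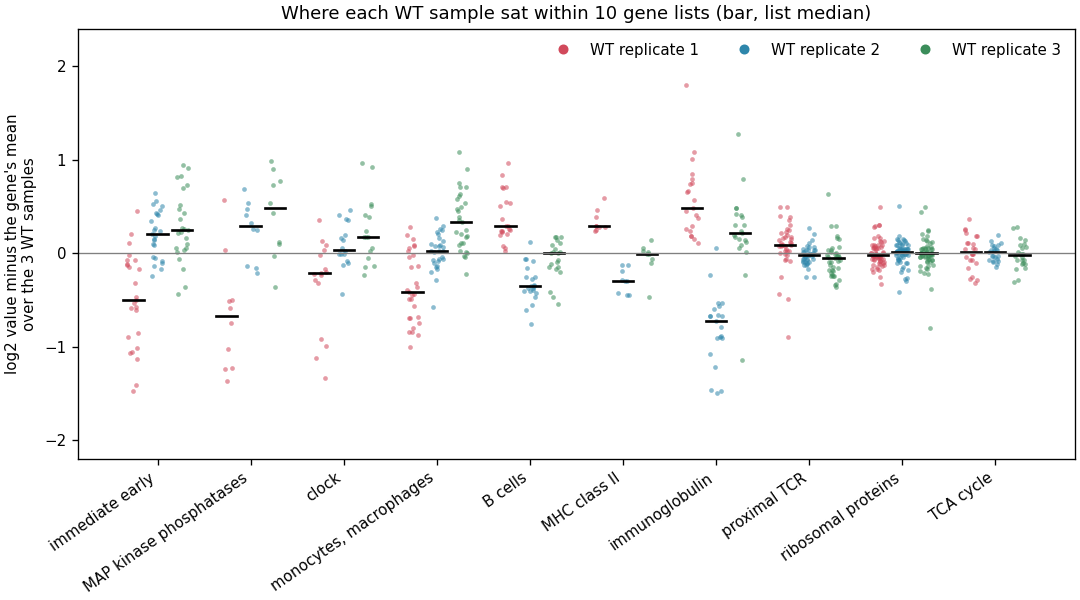
Log2 value of each gene minus its mean over the 3 WT samples (points), by sample, in 10 gene lists, with the list median per sample (black bar). In WT replicate 1 the median was -0.50 for immediate early genes, -0.67 for MAP kinase phosphatases and 0.29 for B cell genes, whereas for ribosomal proteins and the tricarboxylic acid cycle the medians of the samples lay, after rounding, between -0.02 and 0.02.

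Non-coding genes had a different makeup from protein-coding ones. Of 18961 protein-coding genes 2071 were high, compared with 19 of 1926 long non-coding RNAs and 11 of 478 miRNA genes, of which 330 were near background. Malat1, a nuclear RNA found in most cells, read 11.61, 11.50 and 11.60. The bright miRNA genes were led by Mir5099 (12.61, 12.63 and 12.71) and by Mir449b (11.42, 11.42 and 11.38). The label covers the whole transcript, so a probe set for a miRNA gene reads its precursor or other RNA of the locus and not the mature miRNA. Of miRNAs known from T cells, Mir142 was middling with 7.84, 7.71 and 8.21. Other miRNA genes known from blood cells differed. Mir150 (mean 4.16), Mir146 (1.56), Mir29a (4.62), Mir29b-1 (1.87) and Mir326 (4.46) were near background by their means. Mir29a straddled the boundary, with 3.78, 4.31 and 5.76. Mir17 (mean 6.38), Mir15a (6.00) and Mir16-1 (5.31) were middling. Of the Mir181 family, which tunes TCR sensitivity, only Mir181a-1, Mir181b-1, Mir181c and Mir181d were looked up. Of these, the 2 genes on chromosome 8 were above the boundary, Mir181c at 6.27, 6.36 and 6.46 and Mir181d at 7.50, 7.21 and 7.43. The 2 on chromosome 1 were near background, Mir181a-1 at 2.28, 1.86 and 2.30 and Mir181b-1 at 4.60, 3.71 and 3.63. Mir342 was the miRNA gene among the 20 widest spreads, with 7.44, 5.25 and 5.02. The mature strands of these genes are shown with the seed, bases 2 to 8, in capitals, to show that the dim and the less dim members of the Mir181 family carry 1 seed while Mir342 and Mir142 carry others. They lie on GRCm38.p6 at chr1:137966468-137966490 (miR-181a-5p, plus), chr1:137966650-137966673 (miR-181b-5p, plus), chr8:84178924-84178945 (miR-181c-5p, minus), chr8:84178759-84178781 (miR-181d-5p, minus), chr12:108658680-108658702 (miR-342-3p, plus) and chr11:87756903-87756925 (miR-142a-3p, plus), from RefSeq.
miR-181a-5p: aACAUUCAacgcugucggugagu
miR-181b-5p: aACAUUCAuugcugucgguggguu
miR-181c-5p: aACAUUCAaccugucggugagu
miR-181d-5p: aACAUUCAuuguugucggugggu
miR-342-3p: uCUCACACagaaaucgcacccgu
miR-142a-3p: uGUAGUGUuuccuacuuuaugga

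The level classes differed in the makeup of their promoters. RefSeq promoters of 300 bases, 250 of them before the start, were at hand for 15358 of the 18961 protein-coding genes. A promoter was called CpG-rich with a GC content of at least 50% and at least 0.6 of the CG pairs that its base composition would give. By this measure 78.3% of high genes, 64.9% of middling genes and 20.5% of genes near background were CpG-rich, against 48.3% of all. TATAAA, searched on the strand of the gene from 40 to 20 bases before the start, stood in 1.36% of high genes, 1.29% of middling genes and 4.55% of genes near background, against 2.62% of all. CCGGAAGT, a motif that ETS factors bind, was found on either strand in 8.59%, 8.28% and 1.25%. It holds a CG pair, and how far its shares follow those of CpG-rich promoters was not tested. CCAAT, searched likewise, was found in 36.6%, 38.7% and 38.8%. Among the other motifs searched, GGGCGG, TGACGTCA and AAGATGGC rose with level. TGTGGT went the other way, with 11.2% of high genes and 16.8% of genes near background. So did CTTTGA, with 10.2% and 18.8%, and GATAAG was also most frequent near background. A match is a match of letters and not a site in use. Of the 1392 receptor genes that set the background boundary, 1322 were near background. No shares were computed without them, so their part in these contrasts was not tested.

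**Figure D5:**
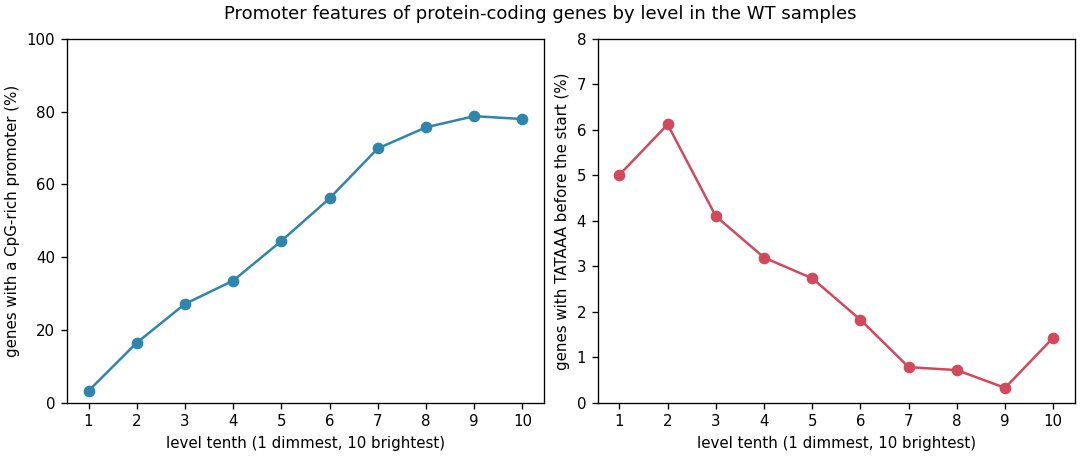
Share of protein-coding genes with a CpG-rich promoter (left, in percent) and with TATAAA before the start (right, in percent) in 10 equal groups by mean level in the WT samples, from the dimmest (1) to the brightest (10), 1535 or 1536 genes each. The CpG-rich share rises from 3.26% to 78.8% in group 9 and is 78.0% in the brightest. The TATAAA share falls to 0.326% in group 9 and is 1.43% in the brightest. Olfactory and vomeronasal receptor genes were not set apart in either panel.

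The share of CpG-rich promoters also differed between the gene lists, which mix the level classes. None of the 3 CD3 genes and 9 of 28 proximal TCR signaling genes (32.1%) had one, beside 11 of 20 T cell transcription factors and 11 of 23 genes of naive T cell homing and survival. Among cytotoxic granule genes and among chemokine receptors it was 1 of 16 each. Signaling lists ranged widely. All 8 MAP kinase phosphatases with a promoter sequence had one, as had 21 of 23 genes of the MAP kinases and their upstream regulators. The counts were 13 of 20 for PI3K, AKT and mTOR, 2 of 6 for STAT factors and 2 of 16 for interferon response genes. TATAAA was held by 23 of 1688 high genes with a promoter sequence, and the windows of the 3 brightest that are in a list are shown beside that of Prss1, a trypsin gene of the pancreas at a mean level of 4.06. The 30 bases from 45 to 16 before the start are printed, with TATAAA in capitals. On GRCm38.p6 they are chr10:96616956-96616985 (Btg1, plus), chr2:13574266-13574295 (Vim, plus), chr12:80113029-80113058 (Zfp36l1, minus) and chr6:41458885-41458914 (Prss1, plus), from RefSeq.
Btg1: cacttcctttccgcagcccTATAAAatgag
Vim: ttcctaacagtgtTATAAAagcagcgccct
Zfp36l1: ccaacccaccaaatctTATAAAttgggctt
Prss1: tccctgaattggggTATAAAggcaggcttc
Btg1 had a mean level of 10.96, Vim, the intermediate filament vimentin, of 10.72, and Zfp36l1, which degrades messages with AU-rich elements, of 10.27.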

How the data were processed

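Splenic T cells of 3 WT and 3 DUSP4-/- samples were hybridized to Mouse Gene 2.0 ST arrays, and the 3 WT samples were described. The authors made the deposited log2 values by RMA, run in the Expression Console software of Affymetrix (version not given in the sources used here). RMA corrects background, normalizes quantiles over the arrays and summarizes probes, so array medians (4.99 to 5.05) are close by construction and low values are compressed. Depth does not apply, and the number of arrays limits the precision.

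Probe sets were named by the platform annotation. Of 41345, 1820 listed several gene entries and 16004 none, and both were left out. Chromosomes, gene types and sequences came from RefSeq on GRCm38.p6, which 23328 of the 23521 probe sets of 1 gene matched by gene identifier. Levels are means of the 3 samples with the SD (n = 3), computed in Python 3.11.15 with pandas 2.3.3 and numpy 2.4.6, and no test was run. The procedure was checked on simulated data. The members, the 61 gene lists and the classes were chosen with earlier results of these data known. Lists of mitochondrial, small nucleolar, miRNA, long non-coding and protein-coding genes, and the miRNAs, start sites and promoter features shown, were chosen after the values were seen.

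Genes to name were the 4 T cell markers, the 30 brightest, the 25 brightest in no list, up to 5 brightest and 3 dimmest of a list (all of a list of up to 15), the 20 widest ranges, the 10 smallest SDs of the high class, each list's widest gene and the STAT, SOCS and DUSP genes. From these the text takes a part. Others, such as Zap70, Fyn, Csk, Ms4a1, Csf1r, Adgre1, Ncr1, Klrb1c, S100a8, Itgam and Itga2, were added for their known roles after their values were seen. Alternatives were the mean over probe sets, sample medians subtracted, a further quantile normalization, 2 other background boundaries, the median over samples, the brightest probe set over all 6 samples and leaving out each WT sample.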

Additional observations from a re-analysis of the deposited data

Results flagged for a closer look

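Bright signal lay in probe sets that the description above leaves out. Of the 1820 probe sets that list several gene entries, 208 (11.4%) were at or above the boundary of the high class, 8.40, and the brightest had a mean of 12.89. Of the 16004 with no gene named, 1326 (8.29%) were at or above it, up to 13.10. They were singled out because they hold signal that no gene of the report accounts for, and what they measure was not tested. No outlier test was run within the WT group of 3 samples. How WT replicate 1 stood apart is described above.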

How the results depend on the processing

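The counts of genes near background and of genes above background in all 3 samples stayed within 1.5 times of the reported values under each of the 10 alternatives, and the size of the high class is fixed by its definition. Leaving out 1 WT sample at a time gave a median SD of genes above background of 0.104 to 0.193, with 0.104 without WT replicate 1. It gave 46 to 414 genes with a range over 1, with 46 without WT replicate 1 and 221 without WT replicate 3, partly because 2 samples span less than 3. The lowest Spearman correlation between samples was then 0.949 to 0.980, the highest without WT replicate 1. It was 0.930 with the boundary at the 99th percentile of the receptor genes and 0.930 with a boundary from genes of other tissues, which leave fewer genes. Of 62 list medians, 18 moved by more than their spread over samples with the mean over probe sets, by up to 1.74, 9 did so without WT replicate 1, and 5 with the median over samples. No paired analysis was made, because only the WT samples were described and no test between groups was run. With 3 arrays, differences between samples carry no error of their own, and levels near 4.86 cannot be told from background.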
